A study of Rattus norvegicus with 7 samples.

Results

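The genes described here are 10 proto-oncogenes that encode nuclear transcription factors: Myc, Mycn, Myb, Mybl2, Ets1, Ets2, Etv5, Fli1, Maf and Rel. They were chosen by symbol in the deposited gene table of RNA sequencing, which holds 16468 usable genes, and 8 of the 10 were found there. Myb and Rel were not analysed here. The series asks how histone marks and proto-oncogene expression differ between the ends of the rat colon. RNA came from isolated colonic crypts, the epithelial pits of the colon wall. The rats were Sprague Dawley, an outbred strain, and were 14 weeks old. One group was proximal colon and the other distal colon, with no treatment or genetic change named for either, and each gave 1 library from material pooled from 7 rats. Neither region has a replicate library, so no test of the regions was made: each difference compares these 2 libraries and has no replicate check.

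All of these proteins bind DNA and set the transcription of other genes, and each family is known from tumours or tumour viruses. Myc and Mycn pair with Max to drive genes of growth and ribosome production, and Myc is a well known target of Wnt signalling in the intestinal crypt. Myb proteins act in progenitor cells and in the cell cycle, and Mybl2 (B-Myb) drives genes of mitosis. ETS proteins share a DNA-binding domain that reads a GGAA core, and several are controlled by the growth factor pathway that ends in the kinase ERK. Maf is a leucine zipper factor of differentiation, and Rel is a subunit of NF-kappa B found mainly in lymphoid cells.

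Etv5 was lower and Maf higher in the distal library, while Mybl2 was similar in both. For this reason, and because they differ in the promoter motifs they carry, the sequences upstream of Etv5, Maf and Mybl2 are shown. They are the 250 bases before the gene start, from RefSeq on the GRCr8 build, 5′ to 3′ on the gene's strand. Capitals mark CCAAT, the CCAAT box bound by NF-Y, in either orientation, and GGCGGGA, a core of the sites bound by E2F factors. The windows are chr11:92113013-92113262 on the plus strand for Etv5, chr19:60621357-60621606 on the minus strand for Maf and chr3:172124555-172124804 on the plus strand for Mybl2.
Etv5: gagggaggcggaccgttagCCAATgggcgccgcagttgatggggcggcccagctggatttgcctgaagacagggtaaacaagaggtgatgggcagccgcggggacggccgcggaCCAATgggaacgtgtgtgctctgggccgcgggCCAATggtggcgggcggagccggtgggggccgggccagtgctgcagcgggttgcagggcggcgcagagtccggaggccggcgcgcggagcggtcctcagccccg
Maf: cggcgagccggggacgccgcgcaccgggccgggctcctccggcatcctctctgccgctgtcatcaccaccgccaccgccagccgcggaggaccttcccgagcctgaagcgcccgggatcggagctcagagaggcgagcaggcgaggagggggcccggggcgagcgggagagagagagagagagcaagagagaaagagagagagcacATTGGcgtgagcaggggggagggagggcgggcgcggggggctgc
Mybl2: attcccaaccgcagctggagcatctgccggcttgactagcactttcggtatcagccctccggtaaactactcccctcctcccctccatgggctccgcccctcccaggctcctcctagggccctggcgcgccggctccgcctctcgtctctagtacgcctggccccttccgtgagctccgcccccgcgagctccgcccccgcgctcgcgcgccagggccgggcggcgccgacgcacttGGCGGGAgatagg

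On both strands CCAAT was found 3 times upstream of Etv5, 1 time upstream of Maf, and not upstream of Mybl2 or Ets2. It occurs in 34.0% of the 33469 upstream windows of the same length in that RefSeq table. The core GGCGGGA was found 1 time, upstream of Mybl2, at base 238 of its window, and occurs in 9.04% of all windows. The GC box GGGCGG was found 4 times upstream of Mybl2, 3 times upstream of Etv5 and 1 time each upstream of Maf and Ets2. At least 1 match was found in 30.5% of all windows, which were not matched for their content of G and C. G and C made up 72.4% of the Etv5, 73.2% of the Maf and 71.2% of the Mybl2 window. GGAA was found in all 4 of the windows searched here, as in 93.2% of all windows. Neither CACGTG, the E-box read by Myc with Max (5.59% of windows), nor TGAGTCA, an element read by AP-1 and Maf proteins (4.05%), was found in these 4 windows. These 6 motifs were chosen after the sequences were seen, GGCGGGA and GGGCGG have letters in common but no match of one overlapped the other here, and a match describes letters only.

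Levels are given in FPKM (fragment counts corrected for the length of the transcript and the size of the library), so that genes can be compared within a library. In the proximal library Ets2 had the highest level, at 98.1 FPKM, followed by Etv5 at 27.1, Myc at 24.3, Ets1 at 5.23, Maf at 4.20, Mybl2 at 4.17, Fli1 at 1.61 and Mycn at 0.489 FPKM. In the distal library the order was Ets2 at 127 FPKM, Myc at 20.6, Maf at 13.1, Etv5 at 10.6, Mybl2 at 4.74, Ets1 at 1.55, Mycn at 0.419 and Fli1 at 0.283 FPKM. Without replicates, neighbours in these orders such as Maf and Mybl2 in the proximal library cannot be told apart. Ets2 exceeded 92.3% of the 9847 measured genes (at least 1 FPKM in 1 library) in proximal and 93.3% in distal crypts. Fli1 exceeded 7.16% and 1.05% of them, respectively.

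**Figure D1:**
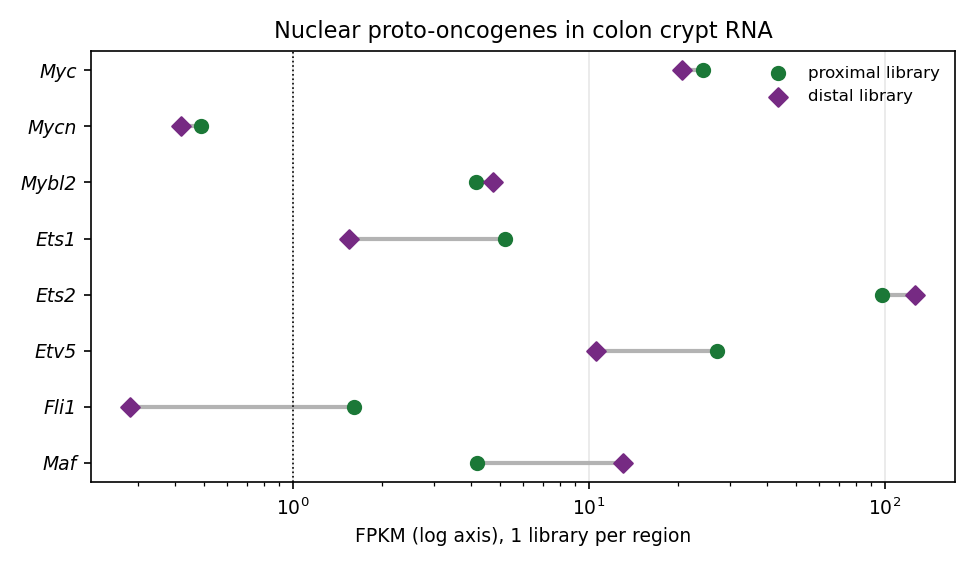
FPKM of the 8 genes found, on a log axis, with circles for the proximal and diamonds for the distal library (1 library each) and a dotted line at 1 FPKM. Ets1, Etv5 and Fli1 have their diamond far to the left of the circle, Maf has it far to the right, and Myc, Mycn, Mybl2 and Ets2 have short bars.

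Of the 7 measured members, 3 were higher by at least 2-fold in the proximal library (Ets1, Etv5 and Fli1) and 1 in the distal library (Maf). Folds were counted on the log2(FPKM + 1) scale, on which differences of low genes come out smaller than they are. Among all measured genes 7.62% were at least 2-fold apart, of which the distal library held the higher value in 3.71% and the proximal one in 3.91%. Mycn, under 1 FPKM in both libraries, was not counted. Taken as distal over proximal, the log2 ratios of the 7 members had a median of -0.22 and those of all measured genes 0.09. Equalising the upper quartiles of the libraries moved the median of all measured genes to -0.06 and the members' median to -0.39. The authors' deposited table tested the same 7 and called the same 4, while it called 5.43% of the 10099 genes it tested, 2.73% as higher in the distal and 2.69% as higher in the proximal library. With a pseudocount of 5 FPKM in place of 1, Etv5 alone stayed at least 2-fold apart, and no member was 4-fold apart on the log2(FPKM + 1) scale.

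**Figure D2:**
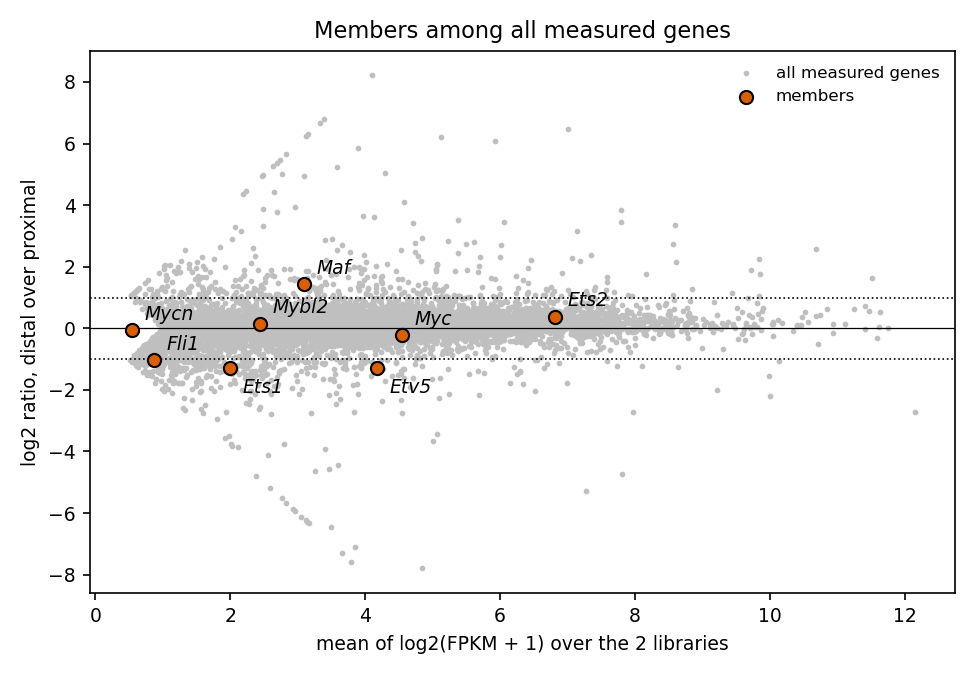
Log2 ratio of distal over proximal FPKM + 1 against the mean log2(FPKM + 1) of the 2 libraries, with all 9847 measured genes in grey and the 8 genes found, Mycn included, in orange. Ets1 (-1.29), Etv5 (-1.28) and Fli1 (-1.03) lie below the lower dotted line of a 2-fold difference and Maf (1.44) above the upper one.

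Myc, which encodes the family's most widely expressed factor, differed little between the regions. It stood at 24.3 FPKM in proximal and 20.6 FPKM in distal crypts, 1.18-fold apart, with a log2 ratio of -0.22. The log2 fold change of Myc in the authors' deposited table was -0.23 ± 0.32 (the standard error implied by its test statistic), with a 95% interval of -0.86 to 0.39. This error comes from the model behind that table and does not measure variation between rats. The interval does not reach a 2-fold difference in either direction. Its gene lies at 98953142 to 98958059 of chromosome 7 in the rn4 build, and the table holds no other gene within 1 megabase of it.

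Mycn, on chromosome 6 at 36508262 to 36514071, stood at 0.489 and 0.419 FPKM in proximal and distal crypts. The authors' deposited table did not test Mycn and listed a log2 fold change of -0.22 ± 0.79 (implied standard error), with an interval of -1.76 to 1.32 that reaches 2-fold in both directions. Another gene of the family, listed as Mycl1, stood at 15.0 and 23.1 FPKM and was above Myc in the distal library. Of the summed FPKM of Myc, Mycn and Mycl1, Myc made up 61.0% in proximal and 46.7% in distal crypts. Mycl1 made up 37.7% and 52.3% of that sum, which was 39.8 and 44.2 FPKM. The related gene Bmyc, at 33.6 and 51.2 FPKM, was above each of them in both libraries and is not in the sum. These shares have no replicate check.

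Partners and antagonists of Myc proteins were all less than 2-fold apart in the 17 measured cases of 22 listed, with a median log2 ratio of 0.26. The highest of them by mean was Mxd1, whose protein competes with Myc for Max, at 68.4 and 118.6 FPKM in proximal and distal crypts. Max itself, the shared partner, stood at 47.0 and 64.5 FPKM. Commonly cited Myc target genes, among them ones of ribosome and nucleotide synthesis, were less than 2-fold apart in all 31 measured cases of 33 listed. Their median of 0.13 turned to -0.02 when the upper quartiles were equalised. The highest of these targets was the translation factor Eif4a1, at 147 and 158 FPKM. The ornithine decarboxylase gene Odc1 stood at 81.0 and 72.6 FPKM and the nucleolin gene Ncl at 50.0 and 56.5 FPKM. The deposited table called none of the partners and none of the targets.

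Mybl2 and the measured genes of its partners were less than 2-fold apart between the regions. Mybl2 stood at 4.17 FPKM in proximal and 4.74 FPKM in distal crypts, 1.14-fold apart, and its gene lies on chromosome 3 at 153925908 to 153954323. Of 12 measured genes within 1 megabase, 2 were at least 2-fold apart, both higher in the distal library. They were R3hdml (0.132 and 1.45 FPKM) and Ada (3.96 and 31.0 FPKM), of which the deposited table called Ada alone. In the authors' deposited table Mybl2 had a log2 fold change of 0.19 ± 0.45 (implied standard error), and the interval of -0.69 to 1.07 reaches 2-fold on the distal side. Among Mybl1, the subunits of the MuvB complex and their E2F and pocket protein partners, 10 of 17 listed were measured and all were less than 2-fold apart. Their median of 0.05 turned to -0.04 and -0.11 under the rescalings to equal medians and equal upper quartiles. The cell cycle factor Foxm1 stood at 7.21 and 7.95 FPKM, and the kinase gene Dyrk1a, the highest, at 22.7 and 20.6 FPKM. Mybl1 stood at 0.629 and 0.486 FPKM.

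Genes of mitosis that B-Myb and Foxm1 drive were less than 2-fold apart in all 24 measured cases of 27 listed. Their median log2 ratio was 0.32, and 0.16 with equal upper quartiles. The mitotic kinase gene Plk1, the highest by mean, stood at 32.6 and 36.1 FPKM and the ubiquitin conjugase gene Ube2c at 23.8 and 39.97 FPKM. Of 21 measured genes of the G1 to S transition and DNA replication, 1 was at least 2-fold apart, namely Tyms, the thymidylate synthase gene, at 42.9 FPKM in proximal and 17.7 FPKM in distal crypts. The highest of these, the cyclin gene Ccnd1, stood at 111 and 132 FPKM. For c-Myb, 9 of 16 cited targets were measured and none was 2-fold apart (median 0.06, or -0.04 and -0.10 under the rescalings).

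**Figure D3:**
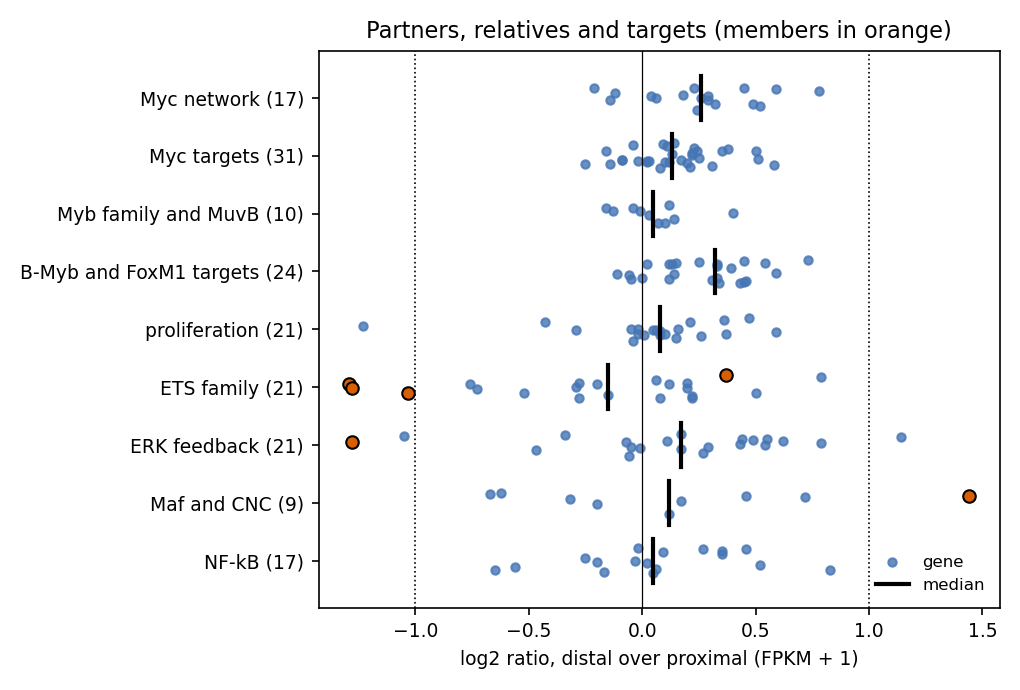
Log2 ratio of distal over proximal FPKM + 1 for the measured genes of each list, with their number in brackets, members in orange, black bars for medians and dotted lines at 2-fold. All genes of the Myc network, Myc target, MuvB, B-Myb target and NF-kappa B lists lie between the dotted lines, and Maf, at 1.44, lies furthest to the right of the genes shown.

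Of the 4 ETS genes, Ets1, Etv5 and Fli1 were lower by at least 2-fold in the distal library, while the values of Ets2, the most abundant of the members, were 1.29-fold apart. Ets1 stood at 5.23 FPKM in proximal and 1.55 FPKM in distal crypts, 3.38-fold apart. In the authors' deposited table Ets1 had a log2 fold change of -1.76 ± 0.48 (implied standard error), an interval of -2.70 to -0.82 and a q of 0.0076. Ets1 is best known from lymphocytes and blood vessels. The log2 ratio of Ets1, -1.29, was lower than those of all but 2.26% of measured genes, and became -0.64 with a pseudocount of 5 FPKM.

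Fli1, a factor of blood and vessel cells that takes part in fusion oncogenes, stood at 1.61 FPKM in proximal and 0.283 FPKM in distal crypts. The authors' deposited table listed Fli1 with a log2 fold change of -2.51 ± 0.81 (implied standard error), an interval of -4.11 to -0.92 and a q of 0.0395. On the log2(FPKM + 1) scale the ratio was -1.03, close to the 2-fold line, and it ran from -2.16 with a pseudocount of 0.1 FPKM to -0.32 with 5 FPKM. In the class of genes whose higher value was 1 to 5 FPKM, 11.6% were at least 2-fold apart.

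Ets1 and Fli1 are neighbours in the genome. On chromosome 8 of the rn4 build Fli1 spans 32187955 to 32309782 and Ets1 spans 32481694 to 32545237. The table lists no gene in the 171911 bases between them. On the other side of Fli1 lie 2 potassium channel genes, Kcnj1, listed at 0 in both libraries, and Kcnj5, at 2.65 and 0.929 FPKM with a log2 ratio of -0.92. Tmem45b, the next measured gene beyond these, stood at 160 FPKM in both libraries. Of the 3 measured neighbours of Fli1 within 1 megabase, Ets1 was the 1 at least 2-fold apart.

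Etv5, which belongs to the PEA3 group of ETS factors and is induced by ERK signalling, had the smallest implied standard error of the 4 genes called. It stood at 27.1 FPKM in proximal and 10.6 FPKM in distal crypts, 2.57-fold apart. For Etv5 the log2 fold change in the authors' deposited table was -1.36 ± 0.32 (implied standard error), with an interval of -1.98 to -0.74 and a q of 0.000857. The gene spans chromosome 11 at 80846286 to 80904013, and none of the 8 measured genes within 1 megabase was at least 2-fold apart. In the class of genes from 20 FPKM up, 6.71% were at least 2-fold apart and the median implied standard error was 0.31.

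Of the other PEA3 genes, Etv4 stood at 1.55 and 3.41 FPKM, 2.20-fold apart but under 2-fold on the log2(FPKM + 1) scale, and Etv1, under 1 FPKM in both libraries, at 0.414 and 0.320 FPKM. Of 21 measured genes that ERK signalling commonly induces, 2 were higher by at least 2-fold in the proximal library, Etv5 and the cytokine gene Lif (5.96 and 2.35 FPKM). On the distal side there was 1, Areg, which encodes the growth factor amphiregulin (2.23 and 6.10 FPKM). Areg was no longer 2-fold apart with equal upper quartiles, nor were Areg and Lif with a pseudocount of 5 FPKM. The deposited table called Etv5 alone among them. The measured feedback inhibitors of the pathway were less than 2-fold apart, with log2 ratios from -0.34 for Spred3 (3.36 and 2.44 FPKM) to 0.62 for Errfi1, the highest of the list (61.2 and 94.3 FPKM). Between them lay Spred2 at 14.5 and 14.0 FPKM, Spry2 at 25.1 and 30.8 FPKM and Dusp6, an ERK phosphatase gene, at 11.7 and 16.1 FPKM. Without Etv5 the median of the list was 0.22, and 0.10 with equal upper quartiles.

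Ets2, a target and effector of Ras signalling that is broadly expressed in epithelium, stood at 98.1 and 127 FPKM. Its log2 fold change in the authors' deposited table was 0.37 ± 0.34 (implied standard error). The interval of -0.29 to 1.03 spans no difference and reaches 2-fold on the distal side. The gene lies on chromosome 11 at 36014047 to 36030833. Kcnj15, at 2.13 and 0.265 FPKM, was the 1 of 7 measured genes within 1 megabase that was at least 2-fold apart.

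Within the whole ETS family, the 3 members above were the ones at least 2-fold apart among 21 measured of 27 listed, and also the 3 that the deposited table called. The 17 measured genes outside the members were less than 2-fold apart on the log2(FPKM + 1) scale, with a median of 0.06 that turned to -0.03 and -0.10 under the rescalings to equal medians and equal upper quartiles. That count depends on the pseudocount: with 0.1 FPKM, 2 of the 17 passed 2-fold on the proximal and 1 on the distal side, and with 5 FPKM Etv5 alone of the family passed. By log2 ratio over the 2 libraries, the family gene closest to Ets1 was Etv5, the one closest to Etv5 was Ets1, the one closest to Fli1 was Etv5, and the one closest to Ets2 was Elf3. The epithelial factor Elf3 was the most abundant, at 373 and 529 FPKM. Together Elf3, Ehf, Spdef and Ets2 made up 78.3% of the family's summed FPKM in proximal and 83.2% in distal crypts. Ets1, Fli1 and Etv5 were minor parts of that sum, at 0.554%, 0.171% and 2.87% in the proximal library and 0.140%, 0.0257% and 0.958% in the distal library.

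By plain ratio of FPKM, 4 of the genes outside the members were more than 2-fold apart, all at low levels. They were Elk3 (1.97 and 0.748 FPKM), Fev (2.51 and 1.12 FPKM) and Spi1 (1.53 and 0.759 FPKM), with the higher value in the proximal library, and Etv4, with it in the distal library. Elf1, at 33.8 and 39.1 FPKM, and Elf4, at 16.8 and 18.4 FPKM, which blood cells also express, were close to equal. Spib, a lymphoid factor that epithelial M cells also express, stood at 11.5 and 10.3 FPKM. Erg, the closest relative of Fli1, was listed at 0 in both libraries.

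**Figure D4:**
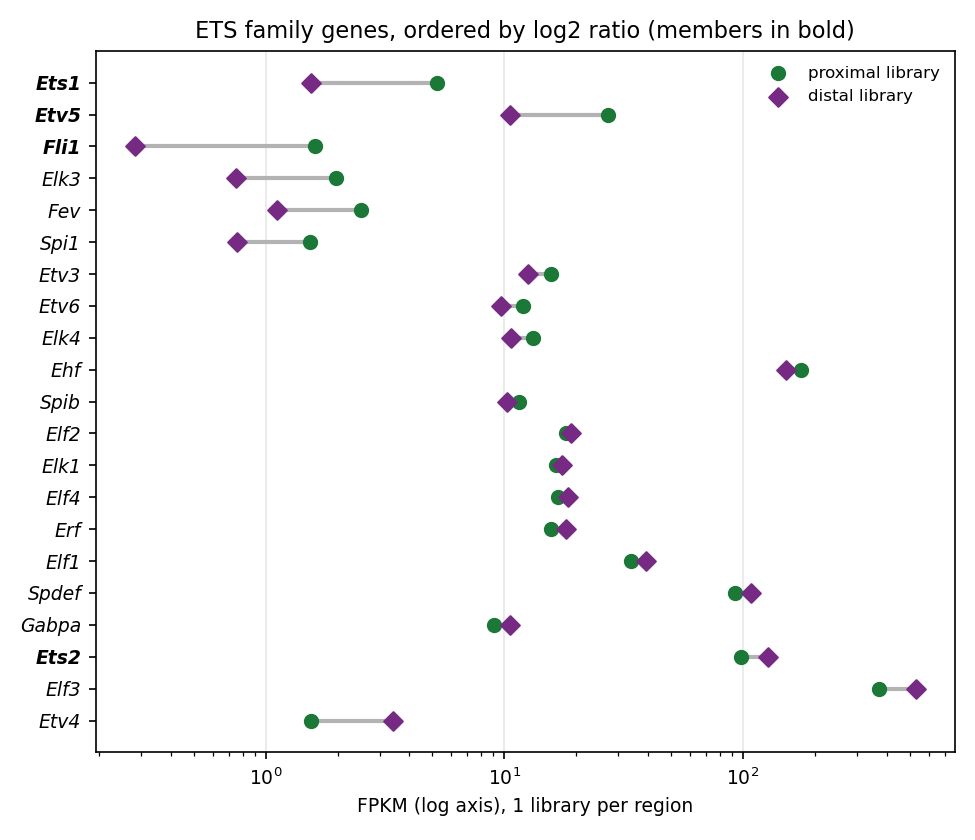
FPKM of the 21 measured ETS family genes on a log axis, ordered by log2 ratio from the lowest in the distal library at the top, with circles for the proximal and diamonds for the distal library. Ets1, Etv5 and Fli1 are the top 3 rows, Etv4 is the bottom row, and Elf3, Ehf, Ets2 and Spdef lie furthest to the right.

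Maf was the 1 member higher by at least 2-fold in the distal library, at 13.1 FPKM against 4.20 FPKM in the proximal library, 3.12-fold apart. The log2 fold change of Maf in the authors' deposited table was 1.64 ± 0.51 (implied standard error), with an interval of 0.64 to 2.65 and a q of 0.0291. Its log2 ratio of 1.44 exceeded those of 98.1% of measured genes, and was 0.98 with a pseudocount of 5 FPKM. The locus in the table, from 45859510 to 45861454 of chromosome 19 in the rn4 build, spans 1945 bases, so the value rests on a short gene model. The 1 measured gene within 1 megabase was Cdyl2, at 2.36 and 0.810 FPKM, lower in the distal library.

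Small Maf genes, which lack an activation domain and pair with CNC and Bach factors, were less than 2-fold apart: Maff stood at 3.08 and 5.73 FPKM, Mafg at 29.6 and 23.4 FPKM and Mafk at 29.9 and 41.3 FPKM. Among 9 measured genes of the Maf and CNC families of 14 listed, Maf was the 1 at least 2-fold apart, and Maff was closest to it by log2 ratio, at 0.72. The most abundant of this list, Nfe2l2, which encodes the oxidant response factor NRF2, stood at 157 and 102 FPKM.

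Rel was not analysed here. Of 22 listed genes of NF-kappa B subunits, inhibitors and kinases, 17 were measured, all less than 2-fold apart and none called by the deposited table. Their median of 0.05 turned to -0.05 and -0.11 under the rescalings. Rela, the main subunit in epithelium, stood at 22.1 and 32.1 FPKM and Nfkb2 at 17.6 and 32.2 FPKM. Tnip1, an inhibitor and the highest of the list by mean, stood at 46.1 and 58.9 FPKM. Of 27 measured other proto-oncogenes with nuclear products, 3 were higher by at least 2-fold in the distal library, namely Fos, Jun and Tcf3, the last with a locus that overlaps another gene of the table. On the proximal side Lmo1 was the 1 gene (7.80 and 2.10 FPKM), which the deposited table did not call and which was under 2-fold with a pseudocount of 5 FPKM.

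Ets1 and Fli1 are also expressed in leucocytes and vessels, and leucocyte markers were lower in the distal library along with them. In bulk RNA, fewer cells of a type and less RNA per cell cannot be told apart. Of 14 measured B cell markers, 10 were higher by at least 2-fold in the proximal library and none in the distal one, for a median log2 ratio of -1.87. The deposited table also called 10. The summed FPKM of the 17 markers in the table was 63.1 in proximal and 7.28 in distal crypts. Cd79b, a B cell receptor subunit, stood at 8.80 and 0.502 FPKM and Ms4a1 at 6.32 and 0.202 FPKM.

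Markers shared by leucocytes had 11 of 18 measured higher by at least 2-fold in the proximal library (median -1.15, summed FPKM 192 and 112), with Arhgdib at 23.5 and 4.72 FPKM, Sash3 at 5.06 and 0.433 FPKM and Ptprc, which encodes CD45, at 8.97 and 1.44 FPKM. Their highest gene, Rac2, stood at 42.9 and 52.2 FPKM, and Vav1 was listed at 0 in both libraries. Markers of T and cytotoxic cells had 6 of 15 (median -0.80, sum 149 and 54.7). In this list the granzyme gene Gzma was furthest apart by log2 ratio (26.3 and 4.58 FPKM) and Cd7 was highest (44.6 and 13.9 FPKM). The genes of the CD3 complex were less than 2-fold apart on the log2(FPKM + 1) scale. Cd3g stood at 6.37 and 6.49, Cd3e at 1.40 and 1.03, Cd247 at 2.32 and 0.713 and Cd3d at 1.05 and 0.294 FPKM. Markers of mast cells had 6 of 11 higher by at least 2-fold in the proximal library (median -1.01, sum 387 and 178). Their protease gene Mcpt2 stood at 275 and 133 FPKM. Macrophage markers had 2 of 9, Lyz2 and Tyrobp, with a summed FPKM of 151 and 144, most of it from Cd14 at 101 and 116 FPKM. Of their defining genes Cd68 stood at 2.98 and 2.30 FPKM and the complement genes C1qa at 3.72 and 3.57, C1qb at 3.08 and 2.15 and C1qc at 2.97 and 4.62 FPKM, while Cd163, Emr1 and Marco were listed at 0 in both libraries. With a pseudocount of 5 FPKM the proximal counts fell to 4 for B cell, 4 for shared leucocyte, 3 for T cell, 2 for mast cell and 1 for macrophage markers. None of the measured genes of these 5 lists was higher by at least 2-fold in the distal library.

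Of 16 vessel markers found, 13 were under 1 FPKM in both libraries, and Cldn5, Flt1, Sox17 and Erg were listed at 0 in both. A listed 0 can be a failed estimate, since Cldn3 of the epithelium and Uhrf1 of dividing cells were also listed at 0 in both. Among the 3 measured, Pecam1 stood at 1.64 and 1.29 FPKM, and Esam, 3.50-fold apart with the higher value distally, at 6.54 and 22.9 FPKM. Markers of fibroblasts and muscle were under 1 FPKM for 13 of 18, with Dcn and Lum listed at 0 in both libraries, although Pdgfrb (2.50 and 0.410 FPKM) was higher by at least 2-fold in the proximal and Des (0.0398 and 2.91 FPKM) in the distal library. Nerve and glia markers summed to 8.35 and 6.09 FPKM, and red cell markers to 96.3 and 162 FPKM. The label of crypt epithelium was checked against markers of colon epithelium: all 14 measured were less than 2-fold apart and their summed FPKM was 12865 and 16058, led by Krt19 at 2629 and 3825 FPKM. The part of leucocyte RNA in the lower distal values of Ets1 and Fli1 was not tested. The part of other cell types in the differences of Etv5 and Maf was not tested either.

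**Figure D5:**
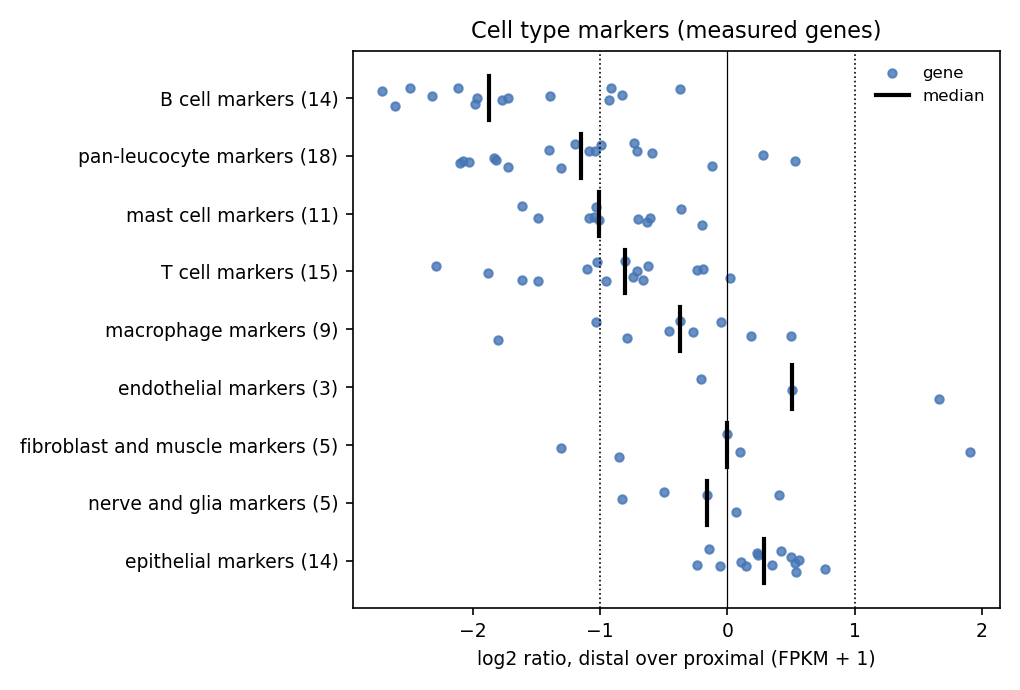
Log2 ratio of distal over proximal FPKM + 1 for the measured markers of each cell type, with their number in brackets, black bars for medians and dotted lines at 2-fold. B cell (-1.87), leucocyte (-1.15), mast cell (-1.01) and T cell (-0.80) medians lie on the proximal side, and all 14 epithelial markers lie between the dotted lines.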

How the data were processed

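RNA of crypts was analysed from 2 libraries, 1 per region, grouped by sample title. The 5 libraries of chromatin immunoprecipitation are not used here. Per the submitters' processing notes, CASAVA, TopHat2 and the build rn4 go with the RNA samples, and the program behind the table is not named in them. The authors' expression values were treated as FPKM because they are not whole, have different sums and step by gene at low levels. Beside them the deposited table gives, per gene, a call with its q-value and p-value, the test statistic and the log2 fold change. Its p-value equals the two-sided normal tail of the statistic to within 2.76e-06, so fold change over statistic gave the implied standard error.

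Of 16492 rows, 23 with too little data or a failed test and 1 repeat were left out. Total read numbers are not given. Of these genes, 1312 share a locus with another row, none of them a member. Starts were counted from 1. Log2 ratios used a pseudocount of 1 FPKM, genes with 1 FPKM in 1 library were called measured, and 2-fold was the threshold. Plain folds of members and list genes were given where the lower value was at least about 0.43 FPKM. Named in each list were up to 3 genes per side at least 2-fold apart, all of them where 5 or fewer, the gene of highest mean FPKM, up to 3 highest markers, and the family gene nearest to a member by ratio; others were named after their values were seen. The members and lists were chosen with earlier results of these data known. Ratios were checked on simulated data. Python 3.11.15, pandas 2.3.3 and Matplotlib 3.10.9 were used. Other pseudocounts, minimums, scalings, folds, the deposited calls and the removal of shared loci were tried.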

Additional observations from a re-analysis of the deposited data

How the results depend on the processing

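With a pseudocount of 5 FPKM, 0 members were apart by 2-fold with the higher value distally and 1 with it proximally, and 322 of all measured genes were at least 2-fold apart in place of 750. At 4-fold these were 0, 0 and 161, and 3 of 21 lists had more genes on the proximal than on the distal side in place of 8. At 1.5-fold 1705 genes were apart. These follow from a stricter or looser scale or threshold. Under the other settings run, the counts of members stayed at 1 in the distal and 2 or 3 in the proximal library, and the median log2 ratio of the members ran from -0.39 to -0.15. A minimum of 5 FPKM left no value for Mycn, Mybl2 and Fli1. Of the log2 ratios of single members under alternatives, 43 moved by less than the implied standard error and 2 by more, namely Ets1 with 5 FPKM and Fli1 with 0.1 FPKM as pseudocount, and none changed direction. Of the medians of lists under alternatives, 183 moved by less than the median implied standard error of the list and 5 by more, among them that of B cell markers, at -3.57 and -0.68 with a pseudocount of 0.1 and 5 FPKM. No paired analysis was possible because each region had 1 library. Read counts per gene are unknown, so the depth behind low values such as those of Fli1 and Mycn cannot be given.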
